A study of Mus musculus with 6 samples.

Results

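Interferon-stimulated genes are the genes that cells switch on after interferon binds its receptors, and 39 of them, listed by symbol, are described here across sorted cells of a mouse skin tumour. Each of the 39 symbols was found on 1 row among 55481 rows of the expression table, and all 39 passed the filter on low values. Type I interferons signal through the receptor chains Ifnar1 and Ifnar2 and the kinases Jak1 and Tyk2 to a complex that holds Stat2 and Irf9 and binds a DNA element called the interferon-stimulated response element. Interferon gamma signals through Ifngr1 and Ifngr2 and raises Irf1 and the guanylate-binding proteins. The induced proteins detect foreign nucleic acid, block viral replication and feed back on the pathway. In tumours and skin these genes are known both from acute responses and from low steady levels.

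The study sequenced polyadenylated RNA from squamous cell carcinoma of mouse skin induced by DMBA, a carcinogen, followed by TPA, which promotes tumour growth. Cells with high Itga6, the integrin alpha 6 chain, that carried the surface ligand CD80 are the submitters' tumour stem-like cells (here Itga6hi CD80pos). Cells with low Itga6 and no CD80 are their differentiated cancer cells (here Itga6low CD80neg). The study asked how tumour stem-like cells act on neutrophils. Each of these groups had 2 libraries, and the labels also list Itga6hi CD80neg cells, which were not analysed here. The labels give no strain, age or sex, do not say how many animals or tumours went into a library, and do not describe the sort beyond the 2 markers, so a p-value here reflects no more than the scatter of these libraries, which may be technical. Both groups came from tumours raised in the same way, and no interferon or antiviral treatment is named for either.

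The deposited values are TPM (transcript abundances scaled to the same total, 1000000, in each library). This unit keeps no record of depth, which is therefore unknown here. Haemoglobin genes held 0.0185% and 0.00621% of TPM in the Itga6hi CD80pos libraries but 70.9% and 50.4% in the Itga6low CD80neg libraries, which lowers every other gene there. Levels are therefore given as haemoglobin-free TPM, rescaled to 1000000 without those genes, which multiplied the Itga6low CD80neg values by 3.44 and 2.02 and left the others nearly as deposited. Levels are printed as replicate 1 and replicate 2 of each group, and fold changes are log2(TPM + 1), Itga6hi CD80pos minus Itga6low CD80neg, with SE, which understates the change of genes near 0. Itga6 stood at 178 and 339 against 5.15 and 3.33. Cd80 stood at 6.24 and 1.89 against 2.21 and 1.14 and did not pass the test (adjusted p = 0.371, limma).

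Markers of several other cell types differed between the groups. All 12 fibroblast markers were lower in Itga6hi CD80pos, with summed levels of 23.3 and 92.0 against 36282 and 15363, led by the collagen Col3a1 at 2.22 and 2.56 against 10195 and 4279. Of 10 keratinocyte markers 6 were higher and 0 lower, with sums of 65104 and 58527 against 9802 and 15923. Markers of red blood cells other than haemoglobin (4 of 4) and of melanocytes and Schwann cells (7 of 7 tested) were lower. So were 2 of 3 tested T, NK and B cell markers, whose list of 14 summed to 0.701 and 0.437 against 11.7 and 53.2. Of that last sum 36.7 came from Gzmb, which stood at 0.122 in Itga6low CD80neg replicate 1 and did not pass the filter. Macrophage and dendritic cell markers were lower in 5 of 9 tested, but their sums were 156 and 145 against 143 and 95.5. Of the neutrophil list 1 of 6 tested was lower, with sums of 1072 and 742 against 2015 and 5234. The highest gene of that list, S100a9, stood at 611 and 410 against 1250 and 3201. Of 3 tested plasmacytoid dendritic cell markers 2 were lower, Tcf4 and Bst2, the latter itself one of the 39 genes, while the list's sum was 2576 and 1791 against 669 and 1425, nearly all from Ly6d. Endothelial and pericyte markers were lower in 1 of 6 tested and mast cell markers in 1 of 1. Of 5 tested Langerhans cell markers 1 was higher, Epcam, which the keratinocyte list also holds, and the other 4 had negative fold changes with 0 calls. Cd3g, Cd4, Cd8a, Nkg7 and Ly6g were listed at 0 in both Itga6hi CD80pos libraries, and Ly6g, the defining surface marker of mouse neutrophils, also in Itga6low CD80neg replicate 1. In bulk samples, fewer cells of a type and less RNA per cell cannot be told apart. The part of these other cells in the results below was not tested.

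**Figure D1:**
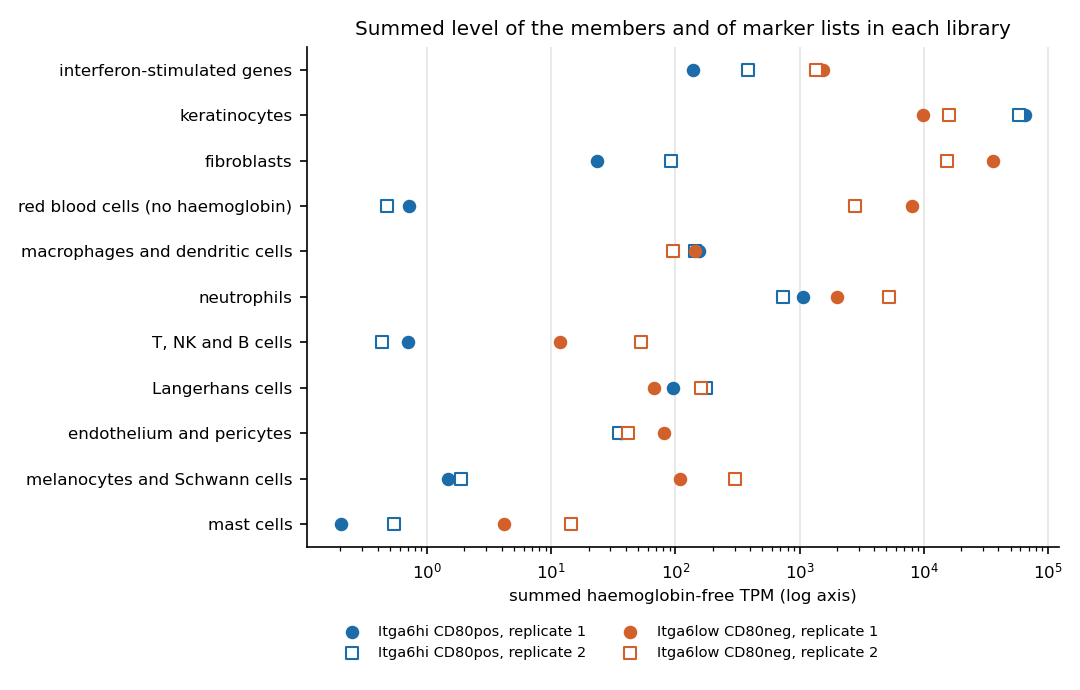
Summed haemoglobin-free TPM (log axis) of the 39 interferon-stimulated genes and of 10 marker lists in each of the 4 libraries. Filled circles are replicate 1 and open squares replicate 2. The interferon-stimulated genes, at 138 and 387 against 1553 and 1352, and the fibroblast, red blood cell, neutrophil, T, NK and B cell, endothelial, melanocyte and mast cell lists lie lower in both Itga6hi CD80pos libraries, keratinocyte and macrophage and dendritic cell lists lie higher, and the Langerhans cell list overlaps.

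Interferon-stimulated genes were mostly lower in Itga6hi CD80pos cells. Of the 39 members 15 were called lower and 0 higher by limma at an adjusted p under 0.05, and 29 were lower and 0 higher at an unadjusted p under 0.05, where 21.0% and 17.4% of all genes were. Of all 14572 genes tested 12.1% were called lower and 7.48% higher. The lower members were the effectors Ifit1, Ifit3, Ifit3b, Rsad2 and Mx2, the modifier Isg15 with its ligase Herc6, the sensor Zbp1, the transcription factors Irf1 and Irf7, the GTPase Gbp3, and Bst2, Cmpk2, Xaf1 and Trim30a. The members' fold changes ranged from -6.16 to 0.45 with a median of -2.23, where all tested genes had a median of 0.08. In 33 of 39 members both Itga6hi CD80pos libraries lay under both Itga6low CD80neg libraries, as they did in 32.3% of all genes tested, and in 0 members both lay above, as in 35.4% of all genes. The fold change was negative in 38 of 39 members and in 47.2% of all genes. As sums over the 39 members, the levels were 138 and 387 in Itga6hi CD80pos against 1553 and 1352 in Itga6low CD80neg.

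On the deposited TPM, 11 members were lower and 1, Trim25, was higher among 37 that passed the filter there, where 9.48% of all genes were lower and 57.0% higher. The members' median fold change was then -1.01 against 1.27 for all genes, and 20 of the 37 had groups that did not overlap in the lower direction, against 12.9% of all genes. A call of lower held under each of the 5 scalings tried that tested the gene for 10 members and for 9.55% of all genes, and a call of higher for 0 members and 6.26% of all genes. These 10 were Ifit1, Ifit3, Ifit3b, Rsad2, Mx2, Isg15, Herc6, Gbp3, Cmpk2 and Trim30a. Among them Ifit3, Ifit3b, Rsad2, Mx2, Herc6, Cmpk2 and Trim30a stood under 1 TPM in both Itga6hi CD80pos libraries. They passed the filter only through Itga6low CD80neg, so their calls could only be lower. Without either Itga6hi CD80pos library 0 members were called, as were 0 of all genes, although 19 members (without replicate 1) and 25 (without replicate 2) were lower at an unadjusted p under 0.05, against 11.2% and 12% (1750 of 14572) of all genes. Without Itga6low CD80neg replicate 1 or replicate 2, 7 and 9 members were lower, against 13.5% and 20.3% of all genes.

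**Figure D2:**
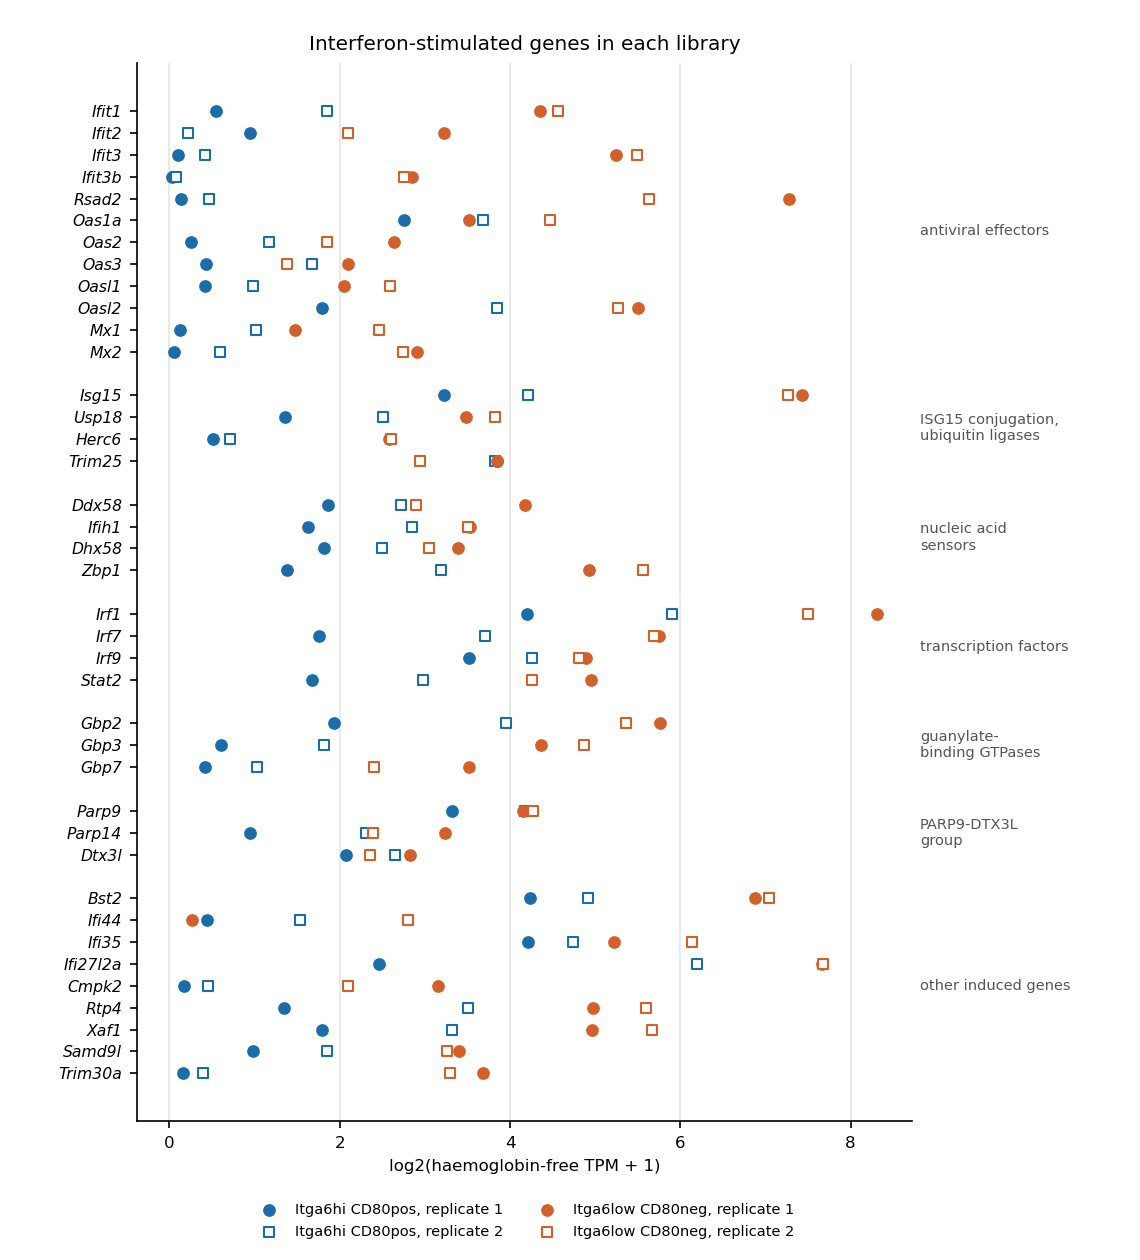
Level of each of the 39 interferon-stimulated genes in the 4 libraries, as log2(haemoglobin-free TPM + 1), ordered by role. Blue points are Itga6hi CD80pos and orange points Itga6low CD80neg, with circles for replicate 1 and squares for replicate 2. In 33 members both blue points lie left of both orange points, and in most members the blue square lies right of the blue circle.

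Levels set the members apart within Itga6hi CD80pos cells. Ifit2, Ifit3, Ifit3b, Rsad2, Oasl1, Mx2, Herc6, Cmpk2 and Trim30a, 9 members in all, stood under 1 TPM in both Itga6hi CD80pos libraries and at 3.15 or more in both Itga6low CD80neg libraries. Of these 9, 7 were called lower, but they passed the filter only through the group where they were high, so these calls had only that direction open to them. Of the 30 members at 1 TPM or more in an Itga6hi CD80pos library 8 were lower, as were 5.54% of all tested genes that met the same condition. Another 8 members stood over 5 TPM in both Itga6hi CD80pos libraries, namely Oas1a, Isg15, Trim25, Irf1, Irf9, Parp9, Bst2 and Ifi35. Of these, Isg15, Irf1 and Bst2 were called lower. The share of all genes at that level that were lower was not counted, so no comparison is made. In Itga6low CD80neg, 4 members exceeded 100 TPM in both libraries: Isg15, Irf1, Bst2 and Ifi27l2a.

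The antiviral effectors held the 2 members with the lowest fold changes, Rsad2 and Ifit3. Of 12 effectors 5 were lower, all 5 under each of the 5 scalings, and the other 7 did not pass. Rsad2, or viperin, an enzyme that makes a chain-terminating nucleotide against viral RNA synthesis, lies on chromosome 12 (26442746 to 26456452, minus strand, GRCm38). Its level was 0.0962 and 0.380 TPM in Itga6hi CD80pos against 154 and 48.6 TPM in Itga6low CD80neg. The groups lay far apart, and within Itga6low CD80neg replicate 1 was the higher library. Its log2 fold change was -6.16 ± 0.64 (SE, adjusted p = 0.0130, limma).

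The Ifit genes encode proteins with tetratricopeptide repeats that bind foreign RNA and hold back its translation, and the 4 members lie side by side on the plus strand of chromosome 19 (GRCm38). Ifit3 (34583531 to 34588731) stood at 0.0730 and 0.335, versus 37.0 and 44.0 TPM. Ifit3b (34607970 to 34613401) stood at 0.0209 and 0.0561, versus 6.22 and 5.72 TPM. Ifit1 (34640871 to 34650009) stood at 0.460 and 2.60, versus 19.4 and 22.7 TPM. In all 3 the Itga6low CD80neg libraries were close to each other and the groups did not overlap. Their log2 fold changes were -5.11 ± 0.39 for Ifit3 (adjusted p = 0.00781), -2.75 ± 0.31 for Ifit3b (0.0146) and -3.26 ± 0.56 for Ifit1 (0.0275). Ifit3 and Ifit3b are near-identical copies: 61.8% of the 31-base words in the Ifit3 transcripts of GENCODE M21 also occur in Ifit3b, so the split of reads between them is uncertain. Their summed level was 0.0940 and 0.391, versus 43.2 and 49.7 TPM. Ifit2 (34550694 to 34576419) stood at 0.932 and 0.163, versus 8.31 and 3.27 TPM, and although its groups did not overlap it did not pass (log2 fold change -2.07 ± 0.55, adjusted p = 0.0605).

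Mx2, a dynamin-like GTPase that traps viral components, stood at 0.0339 and 0.502, versus 6.48 and 5.72 TPM, a log2 fold change of -2.51 ± 0.37 (adjusted p = 0.0219). Mx1, its close relative, stood at 0.0872 and 1.02, versus 1.78 and 4.51 TPM and did not pass (adjusted p = 0.126). The deposited table gives both as polymorphic pseudogenes, and common laboratory strains are known to carry broken alleles. The Oas genes, whose enzymes make 2'-5' oligoadenylate to switch on RNase L, had no call. Oas2, at 0.195 and 1.25, versus 5.23 and 2.60 TPM (adjusted p = 0.0955), kept its groups apart. Oas3 had overlapping groups, at 0.351 and 2.20, versus 3.26 and 1.60 TPM (0.425). So did Oas1a, at 5.77 and 11.9, versus 10.4 and 21.1 TPM (0.352). For Oas1a 68.8% of its 31-base words occur in other genes, nearly all in Oas1g, so its level is uncertain. Oasl1 and Oasl2 are relatives of the Oas genes. Oasl1 stood at 0.336 and 0.966, versus 3.15 and 5.04 TPM (adjusted p = 0.0543). Oasl2 stood at 2.47 and 13.4, versus 44.1 and 37.4 TPM (adjusted p = 0.0706). Neither passed, and in Oasl2 the 2 Itga6hi CD80pos libraries differed more than the Itga6low CD80neg ones.

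Promoter sequence of the members is shown because the interferon-stimulated response element is what the complex with Stat2 and Irf9 reads. The core searched was GAAANNGAAA on both strands, the reverse reading as TTTCNNTTTC, in the 250 bases before each transcript start given by RefSeq (GRCm38.p6), and overlapping matches were counted. The table held 29 of the 39 members by symbol. The core occurred before 13 of these 29 (44.8%), against 3.46% of 27025 genes in the table. It occurred in 8 of the 13 matched members called lower, in 5 of the 16 with no call, and in 7 of the 9 matched members whose call held under every scaling. A second motif, the gamma-activated site TTCNNNGAA of interferon gamma responses, occurred before 5 of the 29 members against 8.13% of all genes. A match describes letters only, and binding was not measured. Core matches with up to 30 bases on each side are printed for those 7 members, 5′ to 3′ on the strand of the gene, with the core in capitals.
Isg15 (chr4:156200845-156200926, minus strand): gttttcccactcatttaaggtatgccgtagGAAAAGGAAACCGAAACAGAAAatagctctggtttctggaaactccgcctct
Rsad2 (chr12:26456533-26456602, minus strand): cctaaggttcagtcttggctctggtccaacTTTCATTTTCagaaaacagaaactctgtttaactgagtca
Ifit1 (chr19:34640755-34640843, plus strand): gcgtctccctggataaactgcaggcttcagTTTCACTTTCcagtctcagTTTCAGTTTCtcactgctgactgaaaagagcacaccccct
Ifit3 (chr19:34583343-34583446, plus strand): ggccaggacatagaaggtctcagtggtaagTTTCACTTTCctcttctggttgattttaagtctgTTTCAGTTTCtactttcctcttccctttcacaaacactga
Ifit3b (chr19:34607739-34607842, plus strand): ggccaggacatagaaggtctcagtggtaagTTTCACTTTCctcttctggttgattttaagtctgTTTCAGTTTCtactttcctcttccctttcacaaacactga
Gbp3 (chr3:142559969-142560023, plus strand): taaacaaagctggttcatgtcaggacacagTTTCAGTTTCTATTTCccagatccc
Trim30a (chr7:104465214-104465259, minus strand): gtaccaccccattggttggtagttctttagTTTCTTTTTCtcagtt
Isg15 held 3 overlapping matches, Ifit1, Ifit3 and Ifit3b 2 separate ones each, Gbp3 2 overlapping ones, and Rsad2 and Trim30a 1 each. The printed Ifit3 and Ifit3b stretches differed at 0 of 104 bases. The full searched windows of these genes, lined up without gaps, were identical at 188 of 218 bases compared (86.2%).

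Isg15 is a small ubiquitin-like protein that is secreted or joined to other proteins, and its own group split. Isg15 (chromosome 4, 156199424 to 156200818, minus strand, GRCm38) stood at 8.35 and 17.4, versus 172 and 152 TPM. Every Itga6low CD80neg value lay well above both Itga6hi CD80pos values. The log2 fold change was -3.63 ± 0.39 (adjusted p = 0.0131). Herc6, the main ligase of Isg15 in mouse (chromosome 6, 57581000 to 57664632, plus strand), stood at 0.422 and 0.633, versus 4.95 and 5.06 TPM, a log2 fold change of -1.98 ± 0.33 (0.0264). Its replicates lay close together in each group. Usp18, the protease that removes Isg15 and also damps the type I receptor, stood at 1.56 and 4.67, versus 10.2 and 13.2 TPM and did not pass (-1.73 ± 0.53, adjusted p = 0.0841). Trim25, the ubiquitin ligase that aids the RNA sensor encoded by Ddx58, was the member with a positive fold change. It stood at 13.4 and 13.2, versus 13.4 and 6.67 TPM, overlapping groups with a log2 fold change of 0.45 ± 0.43 (adjusted p = 0.496). On deposited TPM it stood at 13.4 and 13.2 against 3.88 and 3.31 and was called higher (1.64, adjusted p = 0.00799), where all genes had a median of 1.27.

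Among the 4 nucleic acid sensors 1, Zbp1, was lower. Zbp1 senses Z-form nucleic acid and can start cell death, and it lies on chromosome 2 (173206612 to 173218923, minus strand). It stood at 1.60 and 8.15, versus 29.4 and 46.3 TPM, groups that did not overlap, with a log2 fold change of -2.96 ± 0.69 (adjusted p = 0.0479, and 0.0993 on deposited TPM). The cytosolic RNA helicases had no call. Ddx58, which encodes RIG-I, stood at 2.64 and 5.59, versus 17.1 and 6.44 TPM (-1.24 ± 0.62, adjusted p = 0.213). Ifih1, which encodes MDA5, stood at 2.10 and 6.21, versus 10.5 and 10.4 TPM (0.156), and Dhx58, which encodes their regulator LGP2, at 2.51 and 4.62, versus 9.49 and 7.28 TPM (0.152). In all 3 the lowest Itga6low CD80neg library lay above both Itga6hi CD80pos libraries, but by small steps. On deposited TPM their groups overlapped and their fold changes were -0.03, -0.08 and 0.09.

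The transcription factors were 4 members, of which Irf1 and Irf7 were lower. Irf1, raised by interferon gamma and by NF-kB signals, lies on chromosome 11 (53770014 to 53778374, plus strand). It stood at 17.3 and 58.6, versus 316 and 180 TPM, a log2 fold change of -2.86 ± 0.64 (adjusted p = 0.0439). Irf7, the amplifier of type I interferon production (chromosome 7, 141262706 to 141266481, minus strand), stood at 2.39 and 12.01, versus 52.7 and 50.7 TPM, a change of -2.99 ± 0.69 (0.0457). In both genes the groups did not overlap, and replicate 2 was the higher Itga6hi CD80pos library. Neither call held on deposited TPM (adjusted p = 0.0812 and 0.0822). Stat2 stood at 2.18 and 6.86, versus 29.96 and 18.1 TPM and did not pass (-2.28 ± 0.58, adjusted p = 0.0564). Irf9, its DNA-binding partner, stood at 10.5 and 18.1, versus 28.6 and 27.0 TPM (-0.96 ± 0.35, 0.120).

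The guanylate-binding GTPases, which coat intracellular vacuoles and bacteria, lie in a row on the plus strand of chromosome 3. Gbp3 (142560026 to 142573209) stood at 0.521 and 2.51, versus 19.6 and 28.3 TPM and was lower (-3.41 ± 0.56, adjusted p = 0.0253). Gbp7 stood at 0.333 and 1.04, versus 10.4 and 4.28 TPM and just missed (-2.23 ± 0.54, 0.0508), though it was called on deposited TPM (adjusted p = 0.0338). Gbp2 stood at 2.81 and 14.5, versus 53.2 and 40.1 TPM (-2.62 ± 0.72, 0.0664). None of the 3 had overlapping groups, and Gbp2 had the widest gap between its Itga6hi CD80pos libraries.

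Parp9, Parp14 and Dtx3l were not called. They belong to an ADP-ribosyltransferase and ubiquitin ligase group that acts in interferon responses and on damaged DNA. Parp9 stood at 9.001 and 17.1, versus 16.8 and 18.3 TPM (-0.46 ± 0.40, adjusted p = 0.450). Dtx3l stood at 3.21 and 5.26, versus 6.06 and 4.12 TPM (-0.23 ± 0.44, 0.743). Both had overlapping groups, and on deposited TPM both fold changes turned positive, at 0.81 and 0.82. Parp9 and Dtx3l overlap by 682 bases on opposite strands of chromosome 16, and no strand setting is given in the sources used here, so reads there could fall to either. Parp14 stood at 0.929 and 3.93, versus 8.43 and 4.26 TPM (-1.19 ± 0.63, adjusted p = 0.240), without overlap.

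Of 9 further induced genes 4 were lower. Bst2, or tetherin, holds budding virions at the cell surface (chromosome 8, 71534255 to 71537456, minus strand). It stood at 17.7 and 29.2, versus 117 and 131 TPM, a log2 fold change of -2.39 ± 0.31 (adjusted p = 0.0181, and 0.103 on deposited TPM). Trim30a, a member of the tripartite motif family of ubiquitin ligases (chromosome 7, 104409025 to 104465193, minus strand), stood at 0.116 and 0.318, versus 11.8 and 8.83 TPM, a change of -3.21 ± 0.38 (0.0153). Cmpk2, a mitochondrial nucleotide kinase whose gene lies beside Rsad2 on chromosome 12 (26469204 to 26479837, plus strand), stood at 0.125 and 0.372, versus 7.87 and 3.27 TPM, a change of -2.31 ± 0.47 (0.0376). Xaf1, an antagonist of the apoptosis inhibitor XIAP (chromosome 11, 72301629 to 72313733, plus strand), stood at 2.46 and 9.003, versus 30.2 and 49.9 TPM, a change of -2.76 ± 0.62 (0.0438, and 0.116 on deposited TPM). All 4 had groups that did not overlap.

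The other 5 of these genes did not pass. Ifi27l2a, a small membrane protein gene, stood at 4.50 and 72.5, versus 202 and 203 TPM (-3.34 ± 1.23, adjusted p = 0.122). Its Itga6low CD80neg libraries were level while its Itga6hi CD80pos libraries lay further apart than those of any other member. Rtp4, a receptor transporter that also binds viral RNA, stood at 1.55 and 10.3, versus 30.5 and 47.5 TPM (0.0660). Samd9l, a brake on cell growth and on viral translation, stood at 0.976 and 2.61, versus 9.56 and 8.56 TPM (0.0520). Ifi35, a partner of Nmi, stood at 17.5 and 25.7, versus 36.2 and 69.4 TPM (0.104). These 4 kept their groups apart. Ifi44, at 0.353 and 1.90, versus 0.204 and 5.98 TPM (0.711), did not.

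**Figure D3:**
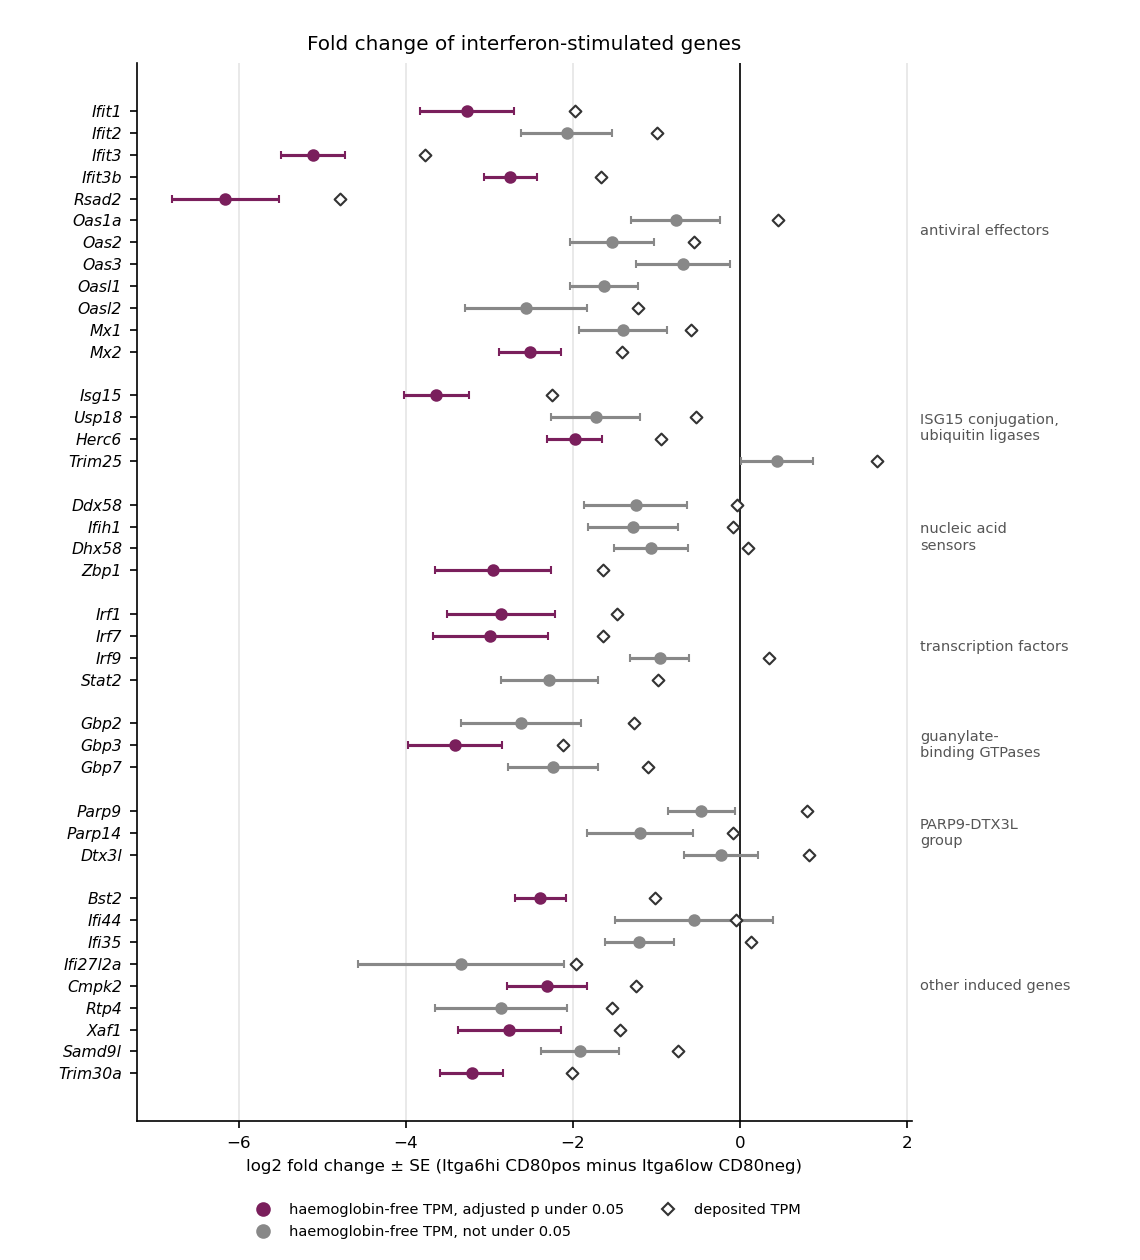
Log2 fold change with SE of each member on haemoglobin-free TPM (filled circles, purple where the adjusted p was under 0.05) and on deposited TPM (open diamonds, shown for the 37 members that passed the filter there). On haemoglobin-free TPM all members but Trim25 lie under 0, and the diamonds lie to the right of the circles.

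The 2 Itga6hi CD80pos libraries differed in these genes. Replicate 2 was above replicate 1 in 37 of 39 members, the exceptions being Ifit2 and Trim25, and in 40.4% of all genes tested. The median log2 difference was 0.90 over the members and -0.06 over all genes, with 3.74 for Ifi27l2a, 2.16 for Rtp4, 2.05 for Oasl2, 2.02 for Gbp2 and 1.94 for Irf7. In Itga6low CD80neg, replicate 2 was above replicate 1 in 16 of 39 members and in 33.8% of all genes, and the medians were -0.10 and -0.33. Of 15 MHC class I presentation genes all 15, and of 49 other interferon-induced genes 43, were also above in Itga6hi CD80pos replicate 2. In the same library the fibroblast list summed to 92.0 against 23.3, mostly through Postn (75.1 against 10.6), and the other 11 fibroblast markers summed to 16.9 against 12.7. The Langerhans cell list summed to 176 against 95.6, with Epcam at 96.2 against 56.1 and Cd74 at 38.4 against 5.12. Epcam is also on the keratinocyte list. The T, NK and B cell list summed to 0.437 against 0.701. The part of these cells in the difference was not tested. With 2 libraries a group this difference has no test.

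**Figure D4:**
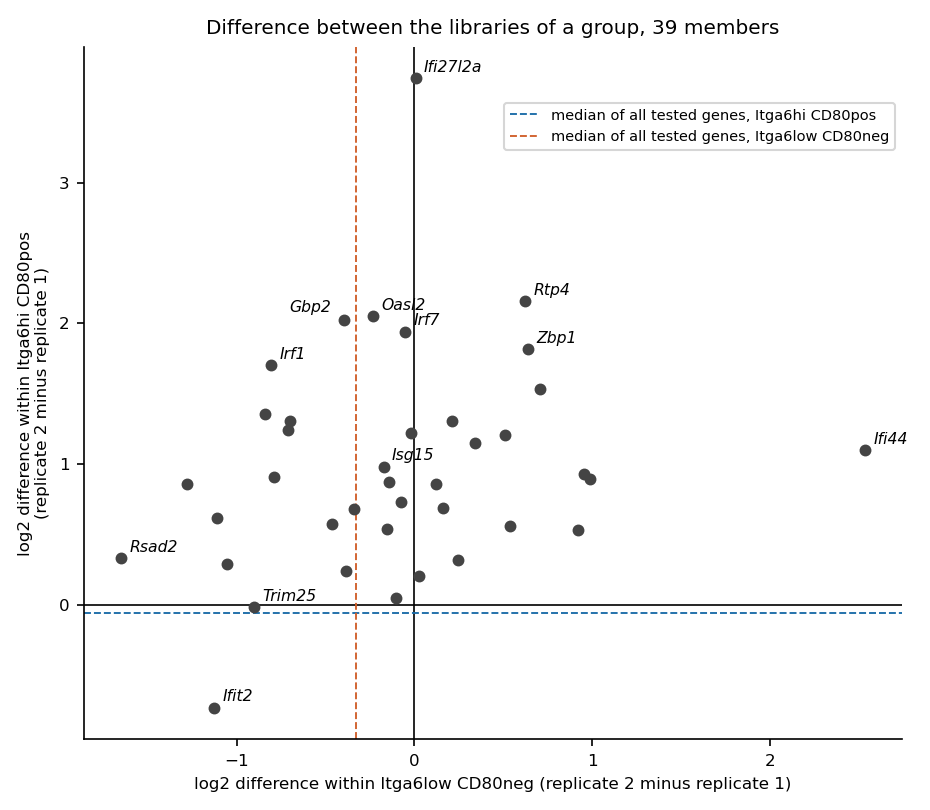
Difference between the 2 libraries of each group (replicate 2 minus replicate 1, log2 of haemoglobin-free TPM + 1) for the 39 members, within Itga6low CD80neg on the x axis and within Itga6hi CD80pos on the y axis. Dashed lines are the medians of all tested genes, -0.33 and -0.06. All points but Ifit2 and Trim25 lie above 0 on the y axis, with Ifi27l2a the highest at 3.74.

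Upstream of the members, interferon transcripts themselves were near 0. None of 21 interferon ligand genes reached the filter, 16 were listed at 0 in all 4 libraries, and the highest value was 0.897 TPM for Ifng, the interferon gamma gene, in Itga6low CD80neg replicate 1, where the other 3 libraries were listed at 0. Of 6 receptor chains 2 were lower. Ifngr1, the ligand-binding chain for interferon gamma, stood at 9.69 and 15.6, versus 116 and 62.4 TPM (-2.69 ± 0.42, adjusted p = 0.0235), also under each of the other scalings. Ifnar2 stood at 14.5 and 16.9, versus 55.7 and 45.4 TPM (-1.62 ± 0.26, 0.0245), a call lost on deposited TPM (adjusted p = 0.485). The 6 tested kinases and factors of the pathway had 0 calls by limma, and 0 at an unadjusted p under 0.05. Among them Jak1 had the highest mean level, at 50.6 and 53.1, versus 89.9 and 45.3 TPM (adjusted p = 0.606). The 7 lists of pathway genes held 92 tested genes. At an unadjusted p under 0.05, 46 were lower and 4 higher, where 21.0% and 17.4% of all genes were. After adjustment 22 were lower and 2 higher, where 12.1% and 7.48% of all genes were. On deposited TPM, among those of the 92 that passed the filter there, 17 were lower and 25 higher. The shares of all genes there were 9.48% and 57.0%. The median fold change of the pathway genes was then 0.38, against 1.27 for all genes.

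Ptpn1, a phosphatase that acts on Jak2 and Tyk2, was higher, at 98.5 and 106, versus 43.3 and 39.3 TPM (1.29 ± 0.21, adjusted p = 0.0249), under all scalings, and was the single call among 6 negative regulators. Socs3, the most abundant of them, stood at 229 and 324, versus 858 and 459 TPM and did not pass (0.0958). Of 10 tested sensing receptors and adaptors 0 were called by limma, and 2 were lower at an unadjusted p under 0.05. Myd88, the adaptor of most Toll-like receptors and the most abundant of that list, stood at 49.7 and 50.9, versus 105 and 78.2 TPM (adjusted p = 0.0734).

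Among 49 other tested interferon-induced genes 18 were lower and 1 higher, where 12.1% and 7.48% of all genes were. Their median fold change was -1.61. Of those called lower, Ifitm1, Gbp4, Gbp8, Gbp9 and Slfn5 stood under 1 TPM in both Itga6hi CD80pos libraries. These passed the filter only through Itga6low CD80neg, so their calls could only be lower. Ube2l6, the conjugating enzyme of Isg15, stood at 2.56 and 5.96, versus 2191 and 665 TPM (-7.92 ± 0.67, adjusted p = 0.00928). Red cell precursors are also known to express Ube2l6, and Alas2, the haem synthesis enzyme of red cells, stood at 0.511 and 0.390, versus 6127 and 2115 TPM. The part of red cells in the levels of Ube2l6 and of the other genes of this list was not tested. Isg20, an exonuclease, stood at 8.06 and 5.65, versus 818 and 517 TPM (-6.39 ± 0.33, 0.00437). Ifitm1, a membrane protein against viral entry, was listed at 0 and stood at 0.492 TPM in Itga6hi CD80pos against 71.3 and 282 TPM (-6.87 ± 0.73, 0.0131). Ifitm3, the most abundant gene of the list, stood at 430 and 611, versus 1140 and 1083 TPM (0.0585). MHC class I presentation genes, many of which interferon also raises, had 2 lower among 15 and a median of -0.64. That count is near the share of all genes called lower, 12.1%. On deposited TPM 2 of the 15 were higher and 0 lower, with a median of 0.73 against 1.27 for all genes. H2-Q4 stood at 18.2 and 44.8, versus 148 and 146 TPM (0.0347). H2-T23 stood at 45.1 and 83.7, versus 233 and 265 TPM (0.0282). Neither call held on deposited TPM (adjusted p = 0.174 and 0.337). B2m, the light chain, stood at 628 and 1284, versus 1773 and 2993 TPM (adjusted p = 0.121).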

How the data were processed

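Gene-level TPM values of polyadenylated RNA were analysed in 4 libraries, 2 from each of the groups compared. The deposited TPM were made by the authors with kallisto 0.44.0, and mm10 is the build named, per the submitters' processing notes. TPM keep no depth, so no counting interval is given. Of 55481 rows 3101 had no symbol in the table, and 15 still had none after matching gene IDs to a table of names.

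Haemoglobin rows (symbols starting Hba-, Hbb- or Hbq) were removed and the rest rescaled to 1000000. Genes at 1 or more in at least 2 libraries (14572) were fitted as log2(value + 1) with limma 3.58.1 in R 4.3.3, with an empirical Bayes trend and Benjamini-Hochberg adjustment over all of them at 0.05. The 5 scalings were this one, deposited TPM, median of ratios, quantile normalization, and removal of haemoglobin, mitochondrial, ribosomal protein and keratin genes. The fit was tested on simulated data. Other alternatives were the pseudocount, the filter, no trend, a replicate block and leaving out each library. Members, lists and tests were chosen with earlier results of these data known. All members are named. Of each pathway list up to 3 called genes with the largest absolute fold change and the gene with the highest mean level are named. Called genes of these lists under 1 TPM in both Itga6hi CD80pos libraries are also named. Any other gene of these lists with printed levels is said to be chosen after its values were seen. Of the cell marker lists, Col3a1, S100a9, Ly6d, Gzmb and Epcam had the highest level in their lists. Other marker genes were named with their values known. Gene positions are from GENCODE M21 (GRCm38). Itga6hi CD80neg cells were not analysed here.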

Additional observations from a re-analysis of the deposited data

How the results depend on the processing

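With only 2 libraries a group, leaving out 1 library changed the counts of calls. Members called lower then ranged from 0 to 9, pathway genes lower from 0 to 19 and higher from 0 to 3, and all genes lower from 0 to 2952 and higher from 0 to 1744. Without a filter (30652 genes) 1 member and 1 pathway gene were lower, 0 pathway genes were higher, and of all genes 112 were lower and 10 higher. With a mean of at least 5, 1 pathway gene was higher and 1033 of all genes lower, and with a pseudocount of 5, 1096 of all genes were lower. On deposited TPM 1 member, 25 pathway genes and 7686 of all genes were higher, and with the 4 gene classes removed 1906 of all genes were higher. Fold changes that turned sign on deposited TPM were Oas1a 0.46, Dhx58 0.094, Irf9 0.35, Parp9 0.81, Dtx3l 0.82, Ifi35 0.14, Jak1 1.06, Socs3 0.19, Myd88 0.54, Ifitm3 0.28 and B2m 0.038, and Dtx3l was 0.11 under quantile normalization. With 1 library left out, fold changes ranged from -0.51 to 0.058 for Dtx3l, from -1.82 to 0.72 for Ifi44 and from -0.78 to 0.19 for Jak1. The Trim25 log2 fold change ranged from -0.0072 to 0.90. The cause was not tested. The samples share only a replicate number. Deviations of same-numbered libraries from their group means had a correlation of 0.106. With 2 libraries a group, both replicate numbers must give the same value, so it counts once. With the replicate as a block 25 members were lower, where 15.3% of all genes were.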

Other observations

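Genes of the interferon pathway that are no members and were chosen after their values were seen showed levels in both directions. Slfn9, a schlafen family gene, was higher in Itga6hi CD80pos, at 8.38 and 9.20, versus 1.86 and 1.47 TPM (1.88 ± 0.38, adjusted p = 0.0357, limma), and the call held under every scaling tried. Uba7, the activating enzyme of Isg15, was lower, at 0.175 and 1.48, versus 24.6 and 10.9 TPM (-3.35 ± 0.62, adjusted p = 0.0316, limma). Ifi204, a DNA-binding protein of the same family as human IFI16, was lower at 0.557 and 6.91, versus 79.1 and 43.6 TPM (-4.09 ± 0.86, adjusted p = 0.0392, limma). Sting1, the adaptor of cytosolic DNA sensing, stood at 1.54 and 8.81, versus 44.2 and 22.5 TPM and did not pass (adjusted p = 0.0706). The chemokine genes Cxcl9, at 1.25 and 13.8, versus 18.2 and 29.6 TPM (0.192), and Cxcl10, at 3.80 and 31.9, versus 86.0 and 62.4 TPM (0.121), did not pass either.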
